A study of Rattus norvegicus with 8 samples.

Results

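The genes examined here carry symbols of the translation initiation factors (Eif) or elongation factors (Eef), or are the poly(A)-binding partners Paip1 and Paip2. Some of them, such as the kinases Eef2k and Eif2ak3 and the inhibitor Eif4ebp1, act on these factors and are not factors themselves. Members were the probe sets annotated with a single symbol that begins with Eif or Eef, or that is Paip1, Paip2 or Pabpc1. The rule found 70 of 15866 probe sets, which stood for 58 of 10411 genes with a single symbol. It found 0 probe sets annotated with Pabpc1 alone. Each gene was represented by its probe set with the highest mean signal, and both Paip1 probe sets were also followed separately. The platform annotation also held 4 probe sets with a second symbol beside Eif3e or Eif5, and these were left out.

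RNA came from a segment of the right brain hemisphere of male Wistar rats aged 7 weeks, taken 2 h after surgery, and was hybridised to Affymetrix RAE 230A arrays. The MCAO candesartan group had the right middle cerebral artery occluded for 90 min, followed by reperfusion, after 5 days of the angiotensin AT1 receptor blocker candesartan at 0.1 mg/kg per injection, 2 injections a day. The sham candesartan group had the same drug and a sham operation. The MCAO vehicle and sham vehicle groups had the same operations after 5 days of 0.9% saline. Each group held 2 arrays, and each array a separate pool of RNA from 2 rats, so p-values measure the spread between pools.

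Translation begins when the factor eIF2 brings the initiator tRNA to the small ribosomal subunit, while the eIF4 factors load that subunit onto the capped end of an mRNA. Poly(A)-binding protein at the other end of the mRNA binds the scaffold eIF4G, Paip1 assists this loop and Paip2 opposes it. Elongation then runs on eEF1, which delivers the amino acids, and on eEF2, which moves the ribosome along. After brain ischemia, protein synthesis is known to be shut down largely through phosphorylation of eIF2 and eEF2, a step that mRNA arrays do not see. The members' mRNA levels measured here are therefore levels of the machinery and not of its activity.

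The array MCAO candesartan 2 stood apart, with a log2 signal SD of 1.26 where the other arrays had 1.21 or less, and a mean correlation of 0.951 with them where theirs were 0.970 or more. The protocol of that array named no drug or vehicle, and its description gave the group. The brain label fitted its markers: all 11 neuronal markers on the array were above the signal filter on all 8 arrays, and 0 were at 0. Their summed signal lay between 244414 and 276947 in MCAO candesartan, 199788 and 205250 in sham candesartan, 198330 and 210490 in MCAO vehicle, and 199475 and 223039 in sham vehicle. In such bulk RNA, fewer cells of a type and less RNA per cell cannot be told apart.

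A probe set was tested when its signal exceeded 916.3 on at least 2 arrays, which 64 member probe sets and 56 of the 58 genes did. Changes are differences in log2(signal + 369.9), which understate the changes of dim genes, and a change was called at a Benjamini-Hochberg adjusted p under 0.05 from limma over all 10310 tested probe sets. Represented by their brightest probe set, 0 of 56 genes were called in any of the 6 contrasts. Among all tested probe sets the called share was 0.262% for MCAO against sham with vehicle, 0.242% for MCAO against sham with candesartan and 0.417% for MCAO against sham over both pretreatments. It was 0.0679% for candesartan against vehicle after MCAO, 0% for candesartan against vehicle after sham, and 0.0194% for the interaction, the difference between the stroke effect with candesartan and that with vehicle. A count of 0 among 56 genes is near such shares. At an unadjusted p under 0.05, limma picked 4 genes with vehicle (7.14%, against 7.04% of all tested) and 3 with candesartan (5.36%, against 12.4%). It picked 5 over both pretreatments (8.93%, against 9.52%), 8 for candesartan against vehicle after MCAO (14.3%, against 13.1%), 0 for candesartan against vehicle after sham (3.92% of all tested) and 5 for the interaction (8.93%, against 8.87%).

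The members as a group stayed near the middle of the arrays. Their median change after MCAO was 0.00 (log2) with candesartan and -0.02 with vehicle, beside -0.03 and 0.01 over all tested probe sets. For candesartan against vehicle the median was 0.05 after MCAO and -0.01 after sham, beside -0.03 and 0.01. With vehicle, the 95% interval of the stroke effect lay within a 2-fold change either way for 55 of the 56 genes, and within 1.5-fold for 43. With candesartan, the interval lay within 2-fold for 53 genes and within 1.5-fold for 45. For most members the arrays thus bound the stroke effect to under 2-fold either way.

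**Figure D1:**
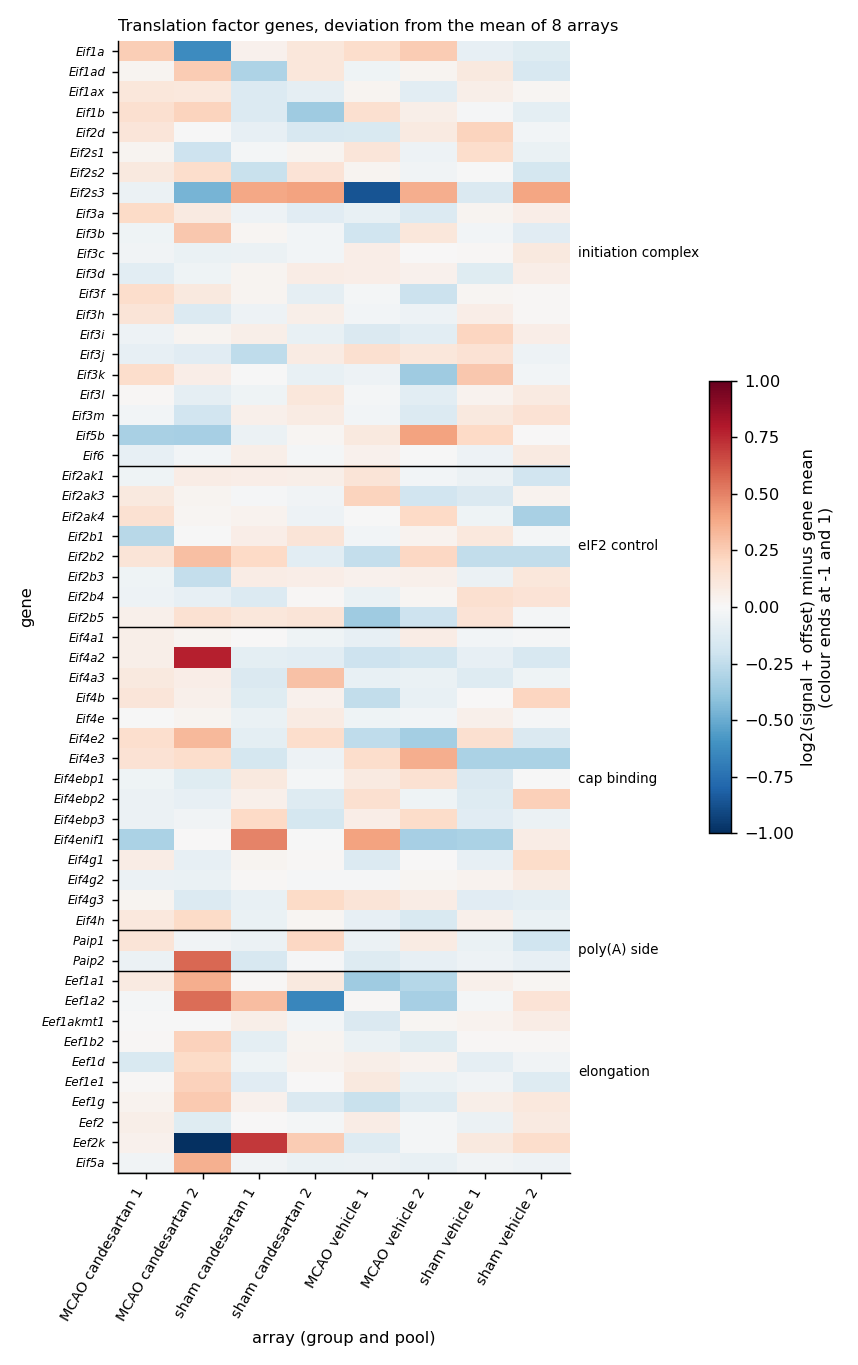
Each row is 1 of the 56 tested genes, sorted by role, and each column 1 of the 8 arrays. Colour is the gene's log2(signal + offset) minus its mean over the arrays, and colours end at -1 and 1, which Eef2k passes on MCAO candesartan 2. Most rows are pale, and MCAO candesartan 2 carries several of the strongest colours.

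On the poly(A) side, Paip1 gave the clearest difference of all members, but on 1 of its 2 probe sets. Probe set 1379272_at had signals of 1351 and 1485 in MCAO candesartan, 2959 and 3474 in sham candesartan, 3242 and 3835 in MCAO vehicle, and 3674 and 3144 in sham vehicle. Both MCAO candesartan arrays lay below the other 6, which overlapped among themselves. It fell by 1.00 ± 0.14 (log2, SE) in MCAO candesartan against sham candesartan (limma, adjusted p = 0.0194), a contrast in which 0.0291% of all tested probe sets were called lower. It also fell in MCAO candesartan against MCAO vehicle, by 1.13 ± 0.14 (limma, adjusted p = 0.0348), where 0.0388% were called lower. With vehicle the stroke effect was 0.05 ± 0.14 (adjusted p = 0.981), and candesartan against vehicle after sham was -0.08 ± 0.14. The interaction of -1.05 ± 0.20 did not pass the test (limma, adjusted p = 0.229), so a stroke effect that depends on candesartan was not established for this probe set.

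The other Paip1 probe set, 1379335_at, did not show this pattern. Its signals were 3400 and 2987 in MCAO candesartan, 2942 and 3608 in sham candesartan, 2927 and 3269 in MCAO vehicle, and 2914 and 2627 in sham vehicle. The sham vehicle arrays were the lowest, and the other 3 groups overlapped. The change was -0.03 ± 0.14 in MCAO candesartan against sham candesartan (limma, adjusted p = 0.955) and 0.04 ± 0.14 in MCAO candesartan against MCAO vehicle (adjusted p = 0.936). Between the probe sets the stroke effect with candesartan differed by 0.97 on the log2 scale, the widest gap in that contrast among the 8 genes with more than 1 tested probe set. Where on the Paip1 transcript each probe set lies was not analysed here.

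The fall of 1379272_at depended on the arrays in the fit. In MCAO candesartan against sham candesartan it kept its call without MCAO candesartan 2 (-1.06, adjusted p = 0.0421) and without MCAO candesartan 1 (-0.95, adjusted p = 0.00966). It lost the call without sham candesartan 1 (adjusted p = 0.084) or sham candesartan 2 (adjusted p = 0.215). Against MCAO vehicle it kept the call without MCAO candesartan 1 (adjusted p = 0.00599) and lost it without any other single array, with MCAO candesartan 2 left out giving -1.18 (adjusted p = 0.0511) and MCAO vehicle 2 left out giving -1.02 (adjusted p = 0.392). Over 19 alternatives the change stayed between -1.15 and -0.82 in MCAO candesartan against sham candesartan, and it was called in 15. Against MCAO vehicle it stayed between -1.28 and -0.93 and was called in 9 of 19. Paip1 had been singled out with its earlier result in these data known.

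**Figure D2:**
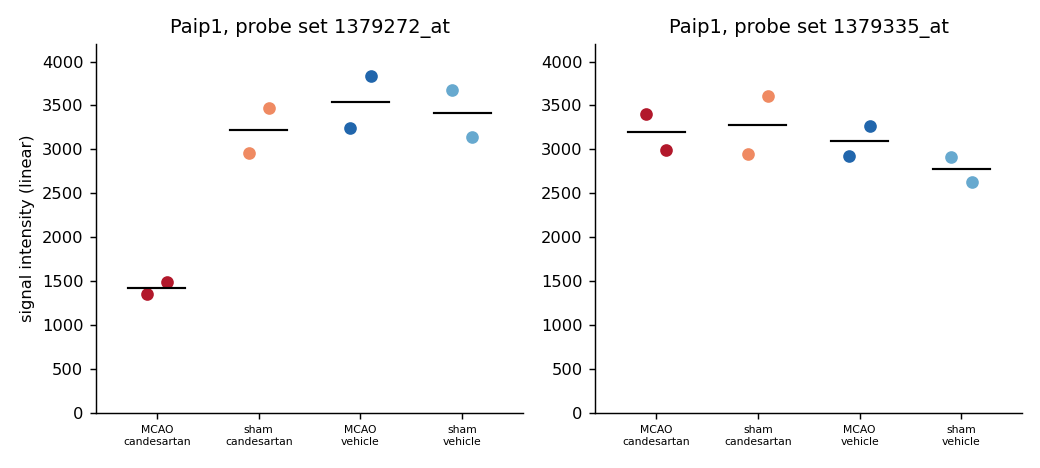
Signal intensity on a linear axis for the 2 Paip1 probe sets, with 1 point for each pool and a line at the mean of the 2 pools. Both MCAO candesartan points of 1379272_at lie below the other 6 arrays, while those of 1379335_at overlap with the sham candesartan and MCAO vehicle points.

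Paip2, which keeps poly(A)-binding protein off the mRNA, had a high value on 1 array. Its brighter probe set, 1373013_at, read 15749 and 24606 in MCAO candesartan, 14621 and 16193 in sham candesartan, 14945 and 15441 in MCAO vehicle, and 15796 and 15414 in sham vehicle. The array MCAO candesartan 2 lay above the other 7. The change against sham candesartan was 0.35 ± 0.17 (limma, adjusted p = 0.446) with that array and 0.03 without it, and on probe set 1399026_at it was 0.07 ± 0.12.

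Among the cap-binding factors, which comprise the cap-binding eIF4E proteins and their inhibitors, the helicase eIF4A and the scaffold eIF4G, 15 of 15 genes were tested and 0 were called. Eif4e3, a member of the eIF4E family, had the largest positive stroke effect. It had signals of 1223 and 1251 in MCAO candesartan, 903.8 and 1021 in sham candesartan, 1254 and 1477 in MCAO vehicle, and 783.0 and 787.3 in sham vehicle. It passed the filter on 5 arrays, the MCAO arrays and a single sham candesartan array. The gene thus entered the test through the MCAO arrays, where it was high. All 4 MCAO arrays lay above all 4 sham arrays. The change over both pretreatments was 0.43 ± 0.12 (limma, adjusted p = 0.215). It was 0.27 ± 0.16 with candesartan and 0.58 ± 0.16 with vehicle, neither of which passed the test.

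Eif4a2, the brain-rich form of the helicase, had the largest positive change after MCAO with candesartan. It read 46211 and 76649 in MCAO candesartan, 41574 and 41319 in sham candesartan, 38572 and 39118 in MCAO vehicle, and 41879 and 39679 in sham vehicle. Both MCAO candesartan arrays lay above the other 6, and MCAO candesartan 2 lay far above MCAO candesartan 1. The change against sham candesartan was 0.52 ± 0.19 (limma, adjusted p = 0.33) with all arrays and 0.16 without MCAO candesartan 2. Against MCAO vehicle it was 0.61 ± 0.19 (limma, adjusted p = 0.264) with all arrays and 0.25 without it. Eif4a1, the widely used form of the same helicase, ranged over 11549 to 12966 on all 8 arrays, and its stroke effects were 0.06 with candesartan and 0.01 with vehicle.

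The cap-binding protein and its inhibitors gave no change past the test. Eif4e, the cap-binding protein itself, ranged over 10024 to 11113 on its brighter probe set, with stroke effects of 0.00 ± 0.11 with candesartan and -0.05 ± 0.11 with vehicle. Its dimmer probe set, 1386997_at, read 1051 and 1566 in MCAO candesartan, against 1855 and 1904 in sham candesartan, a change of -0.44 ± 0.18 (limma, adjusted p = 0.359). The eIF4E inhibitors had stroke effects of -0.12 with candesartan and 0.20 with vehicle for Eif4ebp1, and -0.03 and 0.00 for Eif4ebp2. Eif4g2, which supports translation that does not use the cap, ranged over 18999 to 21060 on its brighter probe set, and both MCAO candesartan arrays were below the other 6 by a change of -0.06 ± 0.10 against MCAO vehicle. Its dimmer probe set gave 0.21 ± 0.13 in that contrast, the opposite sign.

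Eif4e2, an eIF4E relative that binds the cap without recruiting eIF4G, read 2619 and 2961 in MCAO candesartan, 2114 and 2639 in sham candesartan, 1861 and 1732 in MCAO vehicle, and 2602 and 2034 in sham vehicle. Both MCAO vehicle arrays were the lowest of the 8. The change of MCAO candesartan against MCAO vehicle was 0.54 ± 0.15 (limma, adjusted p = 0.251). Eif4enif1, which carries eIF4E into the nucleus, differed more between pools of a group than between groups. It read 2250 and 2892 in MCAO candesartan, 4216 and 2878 in sham candesartan, 3923 and 2219 in MCAO vehicle, and 2239 and 3056 in sham vehicle. Its changes of -0.40 with candesartan and 0.16 with vehicle had standard errors of 0.25.

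The initiation complex group comprises Eif1a, Eif1ad, Eif1ax and Eif1b, the subunits of eIF2 and eIF3, Eif2d, the subunit-joining factor eIF5B, and eIF6. No member probe set carried the symbol Eif1, so the start-site factor eIF1 itself is not among them. All 21 genes of this group were tested and 0 were called. Eif1b, a close relative of the start-codon factor eIF1, read 7325 and 7643 in MCAO candesartan, 5900 and 4997 in sham candesartan, 7330 and 6805 in MCAO vehicle, and 6453 and 6044 in sham vehicle. All 4 MCAO arrays lay above all 4 sham arrays. The change was 0.44 ± 0.12 with candesartan (limma, adjusted p = 0.23), 0.17 ± 0.12 with vehicle and 0.30 ± 0.09 over both pretreatments (limma, adjusted p = 0.239). Without MCAO candesartan 2 the value with candesartan was 0.41.

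Eif1b and Eif4e3 were the genes whose 4 MCAO arrays all lay above the 4 sham arrays, which is 3.57% of the 56, beside 2.83% of all tested probe sets. Eif3m and Eef2k were the genes with all 4 below, also 3.57%, beside 2.39%. Both shares are near the background. Eif3m, a subunit of eIF3, read 7880 and 6985 in MCAO candesartan, 8360 and 8533 in sham candesartan, 7897 and 7295 in MCAO vehicle, and 8649 and 8911 in sham vehicle. Its change over both pretreatments was -0.19 ± 0.08 (limma, adjusted p = 0.489).

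**Figure D3:**
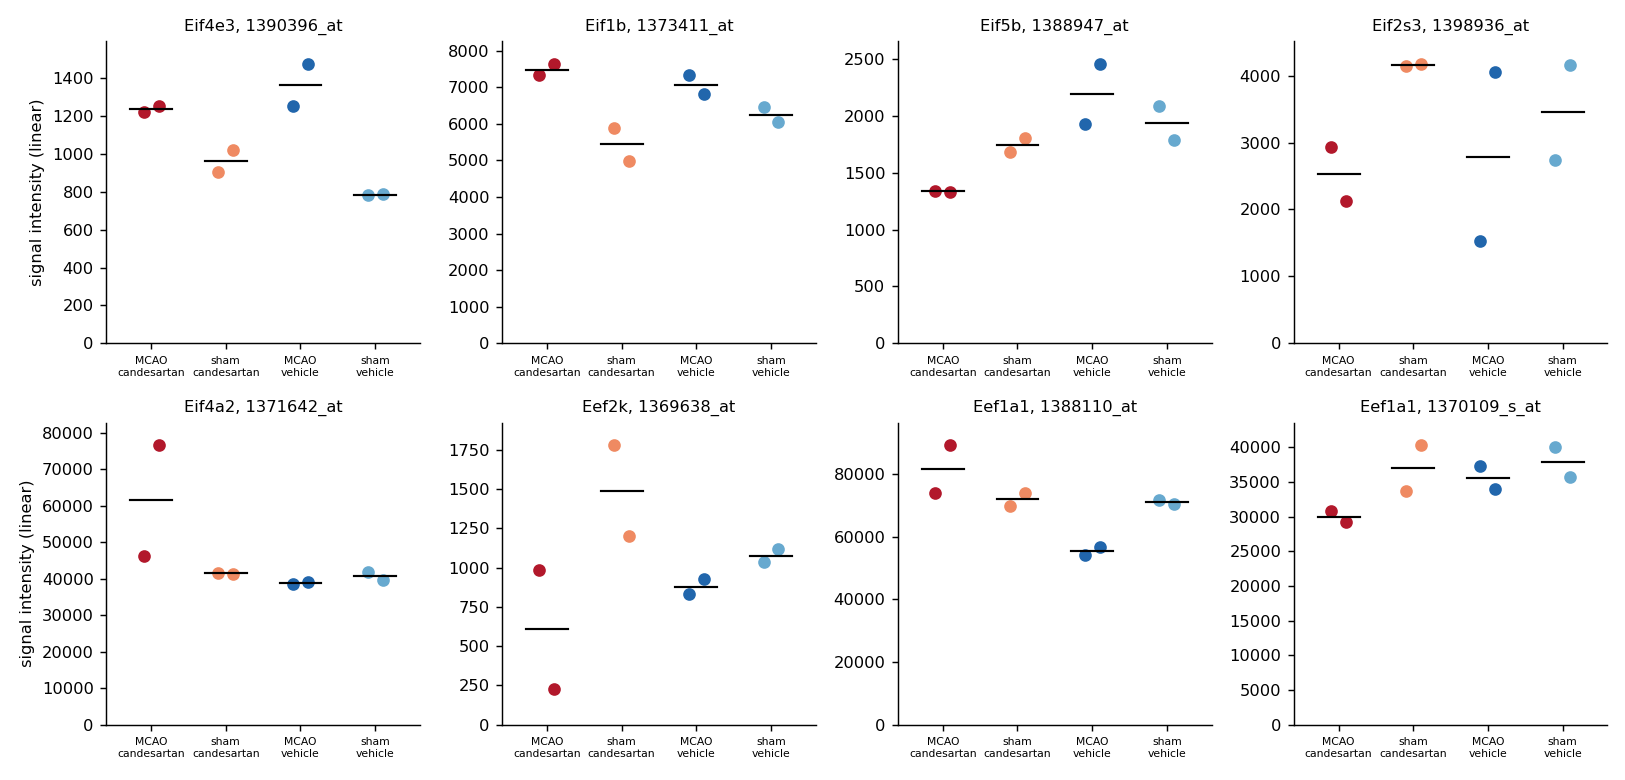
Signal intensity on linear axes for 7 genes, with 1 point for each pool and a line at the mean of the 2 pools. The 4 MCAO points of Eif4e3 and Eif1b lie above the 4 sham points, the pools of Eif2s3 differ widely within groups, and the 2 probe sets of Eef1a1 order the groups differently.

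The eIF3 complex, the large scaffold on the small ribosomal subunit, had 11 tested subunits. Their median change was -0.01 with candesartan, with 5 of 11 above 0, and -0.12 with vehicle, with 3 of 11 above 0. Over all tested probe sets 44.7% were above 0 with candesartan and 52.5% with vehicle. The vehicle median was -0.09 after quantile or loess scaling and -0.19 with arrays centred on their medians, while the candesartan median changed sign under centring, to 0.05. In vehicle rats Eif3k read 5055 and 4023 in MCAO, against 6417 and 5136 in sham, a change of -0.32 ± 0.15 (limma, adjusted p = 0.701). Eif3i read 4687 and 4836 in MCAO vehicle, against 6121 and 5498 in sham vehicle, a change of -0.27 ± 0.12 (adjusted p = 0.686). For each of these subunits both MCAO vehicle arrays lay below both sham vehicle arrays, and neither change passed the test. Such an order held for 7 of 11 eIF3 subunits and for 21 of the 56 genes (37.5%), beside 20.6% of all tested probe sets. The reverse order, with both MCAO vehicle arrays above, held for 0 eIF3 subunits and 11 of the 56 genes (19.6%), beside 24.6%. With quantile, loess and centred scaling the lower count was 17 (30.4%, beside 22.4%), 16 (28.6%, beside 21.9%) and 28 (50%, beside 31.4%), settings chosen for it after seeing the data. These counts carry no test.

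The subunits of eIF2, which carry the initiator tRNA, differed in how well they could be measured. Eif2s1, the subunit that stress kinases phosphorylate, had stroke effects of -0.09 ± 0.14 with candesartan and -0.02 ± 0.14 with vehicle. Eif2s2 had 0.18 ± 0.14 and 0.09 ± 0.14. Eif2s3 read 2935 and 2124 in MCAO candesartan, 4141 and 4177 in sham candesartan, 1523 and 4057 in MCAO vehicle, and 2744 and 4163 in sham vehicle. Its MCAO vehicle pools differed by 1.23 (log2), the widest gap of any member in that group, so its change of -0.52 ± 0.23 over both pretreatments (limma, adjusted p = 0.511) rests on groups that overlap.

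Eif5b, which joins the ribosomal subunits, had the largest negative change of candesartan against vehicle after MCAO among the genes' brightest probe sets, smaller than that of Paip1 1379272_at. It read 1343 and 1331 in MCAO candesartan, 1684 and 1802 in sham candesartan, 1929 and 2458 in MCAO vehicle, and 2088 and 1786 in sham vehicle. Both MCAO candesartan arrays lay below the other 6. The change was -0.58 ± 0.15 against MCAO vehicle (limma, adjusted p = 0.239) and -0.31 ± 0.15 against sham candesartan (adjusted p = 0.441). Both MCAO candesartan arrays lay below the other 6 for 2 of the 56 genes, Eif5b and Eif4g2 (3.57%, beside 8.61% of all tested probe sets). They lay above the other 6 for 6 genes, Eif1ax, Eif3a, Eif3f, Eif4a2, Eif4h and Eif5a (10.7%, beside 7.06%). These counts use the genes' brightest probe sets and carry no test.

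**Figure D4:**
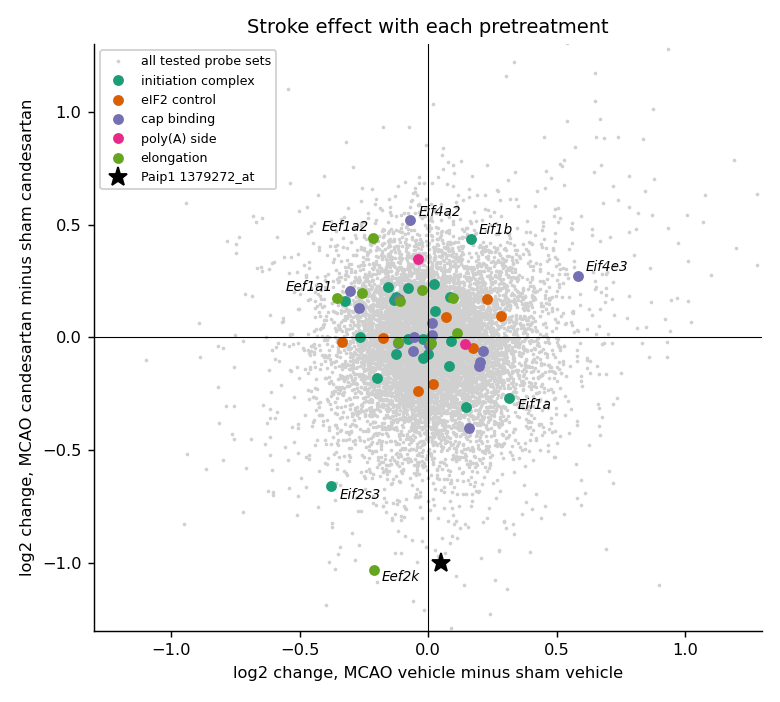
The log2 change of MCAO against sham with candesartan (vertical axis) is plotted against that with vehicle (horizontal axis), coloured by role, with all tested probe sets in grey. The axes are set to the members' range, so some grey points lie outside. Most genes sit near the origin, Eef2k and Eif2s3 lie low, and the star of Paip1 1379272_at lies low on the vertical axis and near 0 on the horizontal one.

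Control of eIF2 rests on 4 kinases that phosphorylate it and on the exchange factor eIF2B that recharges it. Of its 9 genes 8 were tested and 0 were called. The kinase of the endoplasmic reticulum stress response, Eif2ak3 (PERK), had stroke effects of 0.09 ± 0.17 with candesartan and 0.07 ± 0.17 with vehicle. The amino acid sensor Eif2ak4 (GCN2) had 0.09 ± 0.19 and 0.28 ± 0.19. It passed the filter on 2 arrays, both of them MCAO arrays, so it was tested through the side where it was higher. The heme-regulated kinase Eif2ak1 had -0.05 ± 0.12 with candesartan and 0.17 ± 0.12 with vehicle on its brighter probe set. At 2 h the mRNAs of these kinases thus showed no change past the test.

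The double-stranded RNA kinase Eif2ak2 (PKR) was below the filter on all 8 arrays. It read 552.4 and 428.4 in MCAO candesartan, 607.9 and 742.8 in sham candesartan, 700.4 and 692.4 in MCAO vehicle, and 400.4 and 413.4 in sham vehicle. Sham vehicle had the lowest 2 values. With the filter removed, the change with vehicle was 0.46 ± 0.17 (limma, adjusted p = 0.744). Eef1akmt4 was the other gene below the filter, at 98.0 to 585.9 on the 8 arrays.

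Of the 5 eIF2B subunits, Eif2b5, which holds the catalytic site, read 1255 and 1369 in MCAO candesartan, 1324 and 1345 in sham candesartan, 858.8 and 991.8 in MCAO vehicle, and 1351 and 1181 in sham vehicle. Both MCAO vehicle arrays were the lowest. The change was 0.38 ± 0.16 for candesartan against vehicle after MCAO (limma, adjusted p = 0.352) and -0.34 ± 0.16 for MCAO against sham with vehicle (limma, adjusted p = 0.72). Eif2b3 had stroke effects of -0.21 ± 0.14 with candesartan and 0.02 ± 0.14 with vehicle.

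The elongation group, formed by symbol and not limited to the factors themselves, held 11 genes, of which 10 were tested and 0 called. Eef1a1 encodes the abundant form of the factor that delivers aminoacyl-tRNA, and Eef1a2 the form that replaces it in mature neurons and muscle. On probe set 1388110_at Eef1a1 read 73786 and 89230 in MCAO candesartan, 69749 and 74025 in sham candesartan, 54071 and 56614 in MCAO vehicle, and 71605 and 70274 in sham vehicle. Both MCAO vehicle arrays lay below the other 6. The change was -0.36 ± 0.12 for MCAO against sham with vehicle (limma, adjusted p = 0.542, and 0.0485 with only the groups compared in the fit) and 0.17 ± 0.12 with candesartan (adjusted p = 0.589). For candesartan against vehicle after MCAO it was 0.55 ± 0.12, the smallest adjusted p of the represented genes in that contrast (limma, adjusted p = 0.195), and 0.41 without MCAO candesartan 2.

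The other Eef1a1 probe set, 1370109_s_at, ordered the groups differently. It read 30826 and 29190 in MCAO candesartan, 33655 and 40324 in sham candesartan, 37244 and 33978 in MCAO vehicle, and 40024 and 35639 in sham vehicle. Both MCAO candesartan arrays were the lowest. The change for candesartan against vehicle after MCAO was -0.24 ± 0.13, opposite in sign to that of 1388110_at. Over the 8 genes with more than 1 tested probe set, the probe sets differed in sign for 6 genes in that contrast, 5 for the stroke effect with candesartan and 3 with vehicle.

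Eef1a2 read 29990 and 44929 in MCAO candesartan, 37740 and 19198 in sham candesartan, 30689 and 24042 in MCAO vehicle, and 29942 and 33344 in sham vehicle. The sham candesartan pools differed by 0.96 (log2), and the groups overlapped. Its change of 0.44 ± 0.28 with candesartan (limma, adjusted p = 0.539) was 0.15 without MCAO candesartan 2.

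Together the 5 eEF1 subunits (Eef1a1, Eef1a2, Eef1b2, Eef1d and Eef1g) had a median stroke effect of 0.17 with candesartan, with 5 of 5 above 0, and -0.22 with vehicle, with 1 of 5 above 0. Over all tested probe sets 44.7% were above 0 with candesartan and 52.5% with vehicle. The dimmer Eef1a1 probe set, 1370109_s_at, gave -0.29 with candesartan. With the mean over a gene's probe sets the candesartan median was 0.16, with 4 of 5 above 0. The candesartan median was 0.05 after quantile scaling and 0.08 after loess scaling, with 4 of 5 above 0 in each, and it was 0.24 with arrays centred on their medians and 0.05 without MCAO candesartan 2, and the vehicle median lay between -0.28 and -0.15 under these scalings. Single arrays moved both medians: the candesartan one was 0.31 without MCAO candesartan 1 and 0.11 without sham candesartan 2, and the vehicle one was -0.08 without MCAO vehicle 2 and -0.14 without sham vehicle 2. The median of the interaction was 0.46, and 0.34 without MCAO candesartan 2. Quantile scaling gave 0.19 for it, loess scaling 0.22 and the mean over a gene's probe sets 0.27, while centring gave 0.58 and moved the median of all tested probe sets by 0.13. The neuronal markers had medians of 0.17 with candesartan, -0.10 with vehicle and 0.34 for the interaction, with 0 of 11 called by limma in each and 5, 0 and 4 of them at an unadjusted p under 0.05, beside 12.4%, 7.04% and 8.87% of all tested probe sets. Their part in the eEF1 values was not tested.

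Eef2, the factor that moves the ribosome by a codon, ranged over 20119 to 23439 on the 8 arrays. Its stroke effects were -0.02 ± 0.12 with candesartan and 0.01 ± 0.12 with vehicle, so that its 95% intervals reached from -0.28 to 0.23 and from -0.25 to 0.27. Eef2k, the kinase that inactivates eEF2, had the largest negative stroke effect of the members. It read 985.8 and 227.9 in MCAO candesartan, 1780 and 1199 in sham candesartan, 828.3 and 926.8 in MCAO vehicle, and 1032 and 1118 in sham vehicle. All 4 MCAO arrays lay below the 4 sham arrays, with MCAO candesartan 2 lowest by far. The change was -1.03 ± 0.32 with candesartan (limma, adjusted p = 0.279) and -0.21 ± 0.32 with vehicle, and without MCAO candesartan 2 the candesartan value was -0.44. This probe set passed the filter on 6 arrays, so its values are limited by low signal. The other 3 Eef2k probe sets were below the filter. With the filter removed, they gave 0.34, 0.29 and 0.34 with vehicle, and -0.10, 0.38 and -0.28 with candesartan.

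Eif5a, which helps the ribosome past difficult peptide bonds, read 14703 and 19392 in MCAO candesartan, 14679 and 14396 in sham candesartan, 14478 and 14287 in MCAO vehicle, and 14698 and 14580 in sham vehicle. The array MCAO candesartan 2 lay above the other 7. The change with candesartan was 0.21 ± 0.13 (limma, adjusted p = 0.541) with that array and 0.02 without it.

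The 2 MCAO candesartan pools differed widely for a few genes and little for most. Over the 56 genes the median absolute difference between pools was 0.118 (log2) in MCAO candesartan, 0.0865 in sham candesartan, 0.0922 in MCAO vehicle and 0.0933 in sham vehicle. Over all tested probe sets it was 0.225, 0.155, 0.126 and 0.125 in the same order. The members were thus closer between pools than the array as a whole in each group. They were also brighter, with 15 of the 56 over a signal of 10000, beside 964 of 10310 tested probe sets. The part of signal level in this closeness was not tested. In MCAO candesartan the difference of pool 2 minus pool 1 had a median of -0.04 in the 10 members under a signal of 2000 and 0.09 in the 15 members over 10000, where all tested probe sets over 10000 also had 0.09.

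When MCAO candesartan 1 was left out, so that MCAO candesartan 2 stood alone for its group, more members were called. For the stroke effect with candesartan these were Eef2k, Eif1a, Eif4a2, Eif5a and Paip2, or 5 of 55 genes, beside 8.13% of all tested probe sets. Eif1a, a start-site factor, read 1982 and 915.8 in MCAO candesartan, against 1672 and 1777 in sham candesartan. Its change was -0.70 without MCAO candesartan 1 (limma, adjusted p = 0.0254), 0.17 without MCAO candesartan 2 and -0.27 ± 0.23 with both. These calls turn on a single array, and they are absent with both arrays in the fit.

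**Figure D5:**
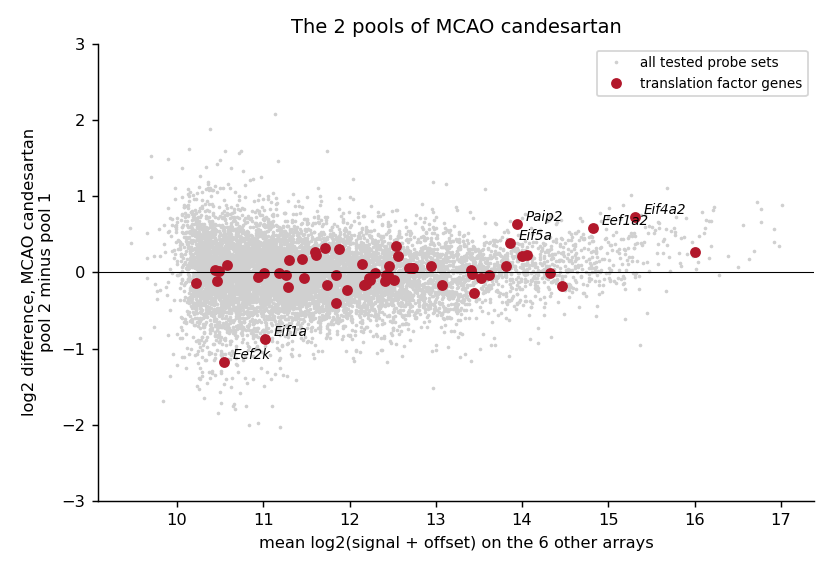
The log2 difference of pool 2 minus pool 1 in MCAO candesartan is plotted against the mean log2(signal + offset) on the 6 other arrays, with translation factor genes in red over all tested probe sets in grey. Some grey points lie beyond the vertical axis. Eef2k and Eif1a lie far below 0, and Eif4a2, Eef1a2, Paip2 and Eif5a lie above it at high signal.

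After sham surgery, the changes of candesartan against vehicle reached from -0.23 to 0.37 over the 56 genes. The largest were 0.37 ± 0.25 for Eif4enif1, 0.35 ± 0.32 for Eef2k and 0.29 ± 0.17 for Eif2b2, a subunit of eIF2B, on the positive side. On the negative side they were -0.23 ± 0.28 for Eef1a2, -0.22 ± 0.18 for the initiator tRNA factor Eif2d and -0.21 ± 0.12 for Eif2b4, another subunit of eIF2B. By limma 0 genes were called, and 0 had an unadjusted p under 0.05. The 95% interval lay within a 2-fold change for 55 of 56 genes, beside 10068 of all 10310 tested probe sets.

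Among other genes of the pathway, a few regulators passed the test after stroke. Of 69 regulators listed, 62 were on the array and 59 tested. The list was chosen with earlier results of these data known, so its counts are no independent evidence of a response of the pathway. Limma called 3 higher and 0 lower in MCAO against sham over both pretreatments, where 0.417% of all tested probe sets were called. It called 1 higher with candesartan (0.242% of all tested) and 1 higher with vehicle (0.262%). In the other 3 contrasts it called 0. At an unadjusted p under 0.05, limma gave 5 of the 59 for candesartan after MCAO, beside 13.1% of all tested probe sets. It gave 1 for candesartan after sham (3.92% of all tested) and 1 for the interaction (8.87%). Ppp1r15a (GADD34), which directs a phosphatase to eIF2, read 1827 and 2238 in MCAO candesartan, 1605 and 1449 in sham candesartan, 3456 and 3749 in MCAO vehicle, and 1674 and 1524 in sham vehicle. All 4 MCAO arrays lay above the 4 sham arrays, and the MCAO vehicle arrays were the highest. It rose by 1.01 with vehicle (limma, adjusted p = 0.0134) and by 0.67 over both pretreatments (adjusted p = 0.0125). The change of 0.34 with candesartan did not pass the test (adjusted p = 0.375). Neither candesartan against vehicle after MCAO nor the interaction was called for Ppp1r15a. The smallest adjusted p (limma) of the tested regulators was 0.152 and 0.466 in those contrasts. A stroke effect that depends on candesartan was thus not established for this gene.

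The other 2 called genes, Btg1 and Tob1, encode partners of the deadenylases that shorten poly(A) tails. Btg1 read 9589 and 8601 in MCAO candesartan, 5566 and 5292 in sham candesartan, 8169 and 9070 in MCAO vehicle, and 6328 and 5827 in sham vehicle. It rose by 0.71 with candesartan (limma, adjusted p = 0.0477) and by 0.59 over both pretreatments (adjusted p = 0.00958). Tob1 read 3157 and 4367 in MCAO candesartan, 2232 and 2054 in sham candesartan, 3289 and 4531 in MCAO vehicle, and 1992 and 1881 in sham vehicle, and it rose by 0.79 over both pretreatments (limma, adjusted p = 0.0192). For both genes the 4 MCAO arrays lay above the 4 sham arrays, as for Ppp1r15a. That order held for 2.83% of all tested probe sets.

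Some translation factor mRNAs begin with a run of pyrimidines, a 5′ terminal tract through which the kinase mTOR is known to control their translation together with the ribosomal proteins. RefSeq (assembly GRCr8) gave a start for 53 of the 58 genes. The windows below hold 10 bases before and 20 bases from that start, on the strand of the gene. They are shown for every eEF1, eIF3 and eIF2 subunit named above that has a start, with a run or without, beside Paip1. Capitals mark the longest run of 7 or more C or T, wherever in the window it begins.
Eef1a1, chr8:88225050-88225079, minus strand: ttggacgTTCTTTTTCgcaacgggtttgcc
Eef1b2, chr9:72074081-72074110, plus strand: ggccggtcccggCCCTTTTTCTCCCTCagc
Eef1a2, chr3:188652614-188652643, minus strand: gggtacatctctgcagctgcgTCCTCTCgg
Eif3f, chr1:172369052-172369081, plus strand: cccttccgttctagCCTCTCTCTTTCTCgg
Eif3i, chr5:147226891-147226920, minus strand: TTCTTCCggtcctactcacattgcctctct
Eif3k, chr1:93397468-93397497, minus strand: TTCTTCCggtccttgagtacttagtaccgt
Eif3m, chr3:111897174-111897203, minus strand: caccgtgtggtaccgCTCCTTTTCCggtcg
Eif2s3, chrX:62933680-62933709, minus strand: cagccgagcaTTTTCCTTTTCTCTCTgagc
The windows of Eef1g, Eif3a, Eif2s1 and Eif2s2 hold no such run.
Eef1g, chr1:215289805-215289834, plus strand: ctgcggaatcaccatggcggctggggtaag
Eif3a, chr1:269919006-269919035, minus strand: atccggggctcgggcggcggcgctgccgcc
Eif2s1, chr6:103405870-103405899, plus strand: tgggaccctagttcgggattcacacataca
Eif2s2, chr3:163855551-163855580, minus strand: tgagaggtatcggtaggagctacgctgact
The Paip1 entry has 3 starts, and none of their windows holds such a run.
Paip1, chr2:53255906-53255935, plus strand: cagacaaccgggcagagggagggctgcgtc
Paip1, chr2:53256477-53256506, plus strand: gggcttaagggagagcgtccgccagccgaa
Paip1, chr2:53256807-53256836, plus strand: ggagcggtcgcagcaccagccaccgccgca

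On the gene's own strand a run of 7 or more C or T lay in the window of 13 of 53 translation factor genes (24.5%), beside 5120 of 27457 genes in all (18.6%) and 42 of 58 cytosolic ribosomal protein genes (72.4%). By role the count was 5 of 10 elongation genes, 6 of 20 initiation complex genes with 4 of 10 eIF3 subunits among them, 2 of 12 cap-binding genes, 0 of 9 eIF2 control genes and 0 of 2 on the poly(A) side. The 13 genes with a run had a median stroke effect of 0.16 with candesartan, with 9 above 0, and of -0.13 with vehicle, with 3 above 0. The 38 tested genes without a run had -0.01 and 0.00. Over all tested genes with a single symbol, the 1004 with a run had -0.01 and 0.02, and the 5239 without had -0.02 and 0.02. The members with a run were also brighter, with a median signal of 5694 against 4264 for those without. The part of signal level in the difference was not tested. Of the 13, 3 are eEF1 and 4 are eIF3 subunits, so these medians partly repeat values given above. They were computed only without further scaling and with all 8 arrays. Runs were counted wherever they lay in the window. That of Eif2s3 began at the annotated start, those of Eif3i and Eif3k lay wholly before it, and others began within the mRNA. The 13 genes are thus not a list of mRNAs with a 5′ terminal tract. A run in the window is a description of the letters and not a test of control by mTOR.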

How the data were processed

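Signal intensities on a linear scale were deposited by the authors as 1 table of 8 arrays, made with the Affymetrix software GCOS per the submitters' processing notes, with version and settings not given in the sources used here. Since array means trimmed by 2% at each end spanned only 0.000426%, no further scaling was applied. Of 15923 probe sets, 57 controls were left out. From the table, log2(signal + 369.9) was computed, the offset being the 20th percentile of all values, and probe sets above 916.3, the 40th percentile, on at least 2 arrays were tested (10310). All 4 groups were fitted in limma 3.58.1 (R 4.3.3; lmFit, then eBayes with a trended prior variance, on 4 residual degrees of freedom), with Benjamini-Hochberg adjustment within each of 6 contrasts. The number of arrays limits the precision: with 2 pools against 2, an exact permutation test of a single gene cannot go below p = 0.333, so p-values rest on limma's spread pooled over probe sets and groups.

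Groups came from the sample descriptions. Gene symbols came from the platform annotation, and all 58 member symbols were in the RefSeq table of GRCr8. Named genes were a fixed list of members, every called member and the 3 largest changes each way in each contrast. Eif3i, Eif3k, Eif1ax, Eif3a, Eif3f, Eif4h and Eef1akmt4 fell outside it and were named after their values were seen. Eef1b2, Eef1d and Eef1g also fell outside it and were named as eEF1 subunits. The lists of eEF1 and eIF3 subunits were not among the fixed lists by role. Members, lists and tests were chosen with earlier results of these data known. The pool numbers did not pair arrays: correlations of pool differences between groups lay between -0.095 and 0.137. The fit was tested on simulated data with known changes. Alternatives covered scaling, offset, filter, variance model, groups in the fit, a replicate block, the mean over a gene's probe sets and leaving out each array.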

Additional observations from a re-analysis of the deposited data

How the results depend on the processing

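The count of members called was 0 in each contrast and stayed 0 under the other settings, with these exceptions. When only the groups compared were fitted, 1 gene, Eef1a1 (-0.36, adjusted p = 0.0485), was called for MCAO against sham with vehicle, beside 0.902% of all tested probe sets. Leaving out 1 array gave 0 to 5 for MCAO with candesartan, 0 to 3 over both pretreatments, 0 to 7 for candesartan after MCAO and 0 to 5 for the interaction, the high values all without MCAO candesartan 1, where 8.13%, 3.78%, 9.6% and 2.91% of all tested probe sets were called. For Paip1 1379272_at, MCAO with candesartan was no longer past the test with no filter (-1.002, adjusted p = 0.0586) or with only the groups compared (-1.002, adjusted p = 0.107), and it lay between -1.11 and -0.90 without single arrays. Candesartan after MCAO lost the call with no filter (-1.13, adjusted p = 0.0998), with no variance trend (adjusted p = 0.0574) and with only the groups compared (adjusted p = 0.201), and it lay between -1.24 and -1.02 without single arrays. Over both pretreatments the value without single arrays lay between -0.53 and -0.42, and the interaction between -1.16 and -0.94. Both were past the test without MCAO candesartan 1 (adjusted p = 0.0476 and adjusted p = 0.0376). The cause of these losses was not tested. Fewer arrays leave fewer degrees of freedom.

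The members' medians moved by more than their spread between pools as follows. With quantile, centred and loess scaling they were -0.0048, -0.089 and 0.0015 for MCAO with vehicle, 0.0149, 0.0637 and 0.0202 with candesartan, 0.0639, 0.1246 and 0.0736 for candesartan after MCAO, 0.0066, -0.0596 and 0.005 after sham, and 0.0163, 0.1769 and 0.0203 for the interaction. Over both pretreatments the median was -0.0024 with quantile scaling, 0.0201 with no filter and -0.0072 with the stricter filter. It was -0.0184 after sham with the stricter filter, 0.0358 for the interaction with no filter, and with the mean over probe sets -0.0078 with vehicle and 0.0222 for the interaction. Without single arrays the medians lay between -0.0363 and -0.0227 with vehicle, 0.0023 and 0.0484 with candesartan, -0.0061 and 0.0144 over both, 0.016 and 0.0537 for candesartan after MCAO, -0.0188 and 0.0219 after sham, and 0.0106 and 0.0634 for the interaction. Of 7120 values of single probe sets, 23 gained and 14 lost the call and 0 reversed a call, while 369 uncalled values changed sign. The replicate block changed no count of members called, which stayed 0, and Paip1 1379272_at kept its calls. Values near the filter, such as those of Eif2ak4, Eif4e3, Eif2b5, Eif2d and Eef2k, are limited by low signal.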

Other observations

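The 4 probe sets annotated with 2 symbols each were all above the filter and gave no change past the test. The probe set of Eif3e and Eif3el1 read 9699 and 7496 in MCAO candesartan, 8949 and 8993 in sham candesartan, 8020 and 8096 in MCAO vehicle, and 9571 and 8833 in sham vehicle. Its change was -0.07 with candesartan (limma, adjusted p = 0.864) and -0.18 with vehicle (adjusted p = 0.856). The 3 probe sets of Eif5 and Eif5-ps1, the GTPase-activating factor and a pseudogene copy, had stroke effects of -0.11 to 0.07 with candesartan and -0.14 to 0.08 with vehicle. Signal of a gene and of its copy cannot be told apart on these probe sets.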
